A study of Mus musculus with 224 samples.

Results

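Gene expression after ethanol vapor without drinking was compared in the hippocampus (HPC), the nucleus accumbens (NAC), the central amygdaloid nucleus (CeA) and, from the stria terminalis, its bed nucleus (BNST), in mice that were never offered ethanol to drink. The comparison used the 83 NonDrinking arrays of these 4 regions out of the 224 arrays of the series: 12 CIE NonDrinking and 12 Air NonDrinking arrays in NAC, 11 and 8 in HPC, 11 and 10 in BNST, and 11 and 8 in CeA. Chronic intermittent ethanol (CIE) means repeated stays in an ethanol vapor chamber, here 16 hours a day for 4 days, followed by 72 hours of abstinence, over 4 cycles. The mice were male C57BL/6J, bought at 10 weeks of age, an inbred strain that drinks ethanol readily. Ahead of every session CIE mice had an injection of pyrazole at 1 mmol/kg, an inhibitor of alcohol dehydrogenase that slows ethanol clearance, together with ethanol at 1.6 g/kg. Air mice were given saline with the same dose of pyrazole and chambers that held only air, so both groups carried the inhibitor and the chamber stay. Between cycles the NonDrinking mice had water alone, and all mice were killed several days after the last vapor session. The arrays came from 24 mice, of which 10 CIE mice and 6 air mice were measured in all 4 regions. Values were measured in dissected whole tissue, where fewer cells of a type and less RNA per cell cannot be told apart.

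NAC is the ventral striatal station of reward learning, HPC serves contextual memory, and BNST and CeA form the extended amygdala, which drives the anxiety and stress signs of withdrawal. Vapor cycles followed by abstinence are used to produce ethanol dependence in mice. The regions were told apart by their known genes, with each region normalized separately and levels between regions open to that. Of 12 measured genes of striatal projection neurons, such as the dopamine receptor Drd2 (mean log2 value 9.69 in NAC and 5.10 in HPC), 10 were highest in NAC. Of 11 hippocampal genes 8 were highest in HPC, among them Lct (11.15 in HPC and 4.61 in NAC). Of 14 extended amygdala genes 6 were highest in BNST and only 3 in CeA, while 5 were highest in NAC, so the CeA dissection stood out less by its list. Array medians lay between 6.82 and 7.07. The lowest median correlation of an array with the others of its region was 0.981, for the CeA array of air mouse 48, and between 0.990 and 0.994 in the other regions.

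Within single regions, no probeset passed the study's threshold. The limma fit with all 4 treatment groups of a region found 0 of 45027 probesets in NAC, 0 of 44463 in HPC, 0 of 44429 in BNST and 0 of 43969 in CeA at an adjusted p of 0.01 or less (0% in each). At an unadjusted p under 0.05 the fit found 2824 probesets in NAC (6.27%), 4361 in HPC (9.81%), 3946 in BNST (8.88%) and 4019 in CeA (9.14%). In NAC more of these were higher than lower in CIE mice (3.91% and 2.36%), and in HPC the shares were close (5.22% and 4.59%). In BNST (3.17% and 5.71%) and CeA (3.48% and 5.66%) more were lower. Differences were small throughout: the log2 difference was under 0.1 in size for 87.0% of probesets in NAC, 82.4% in HPC, 81.5% in BNST and 65.7% in CeA. With only the 2 NonDrinking groups in the fit, 46 probesets were called in NAC (0.102% of those tested), of which 43 were higher in CIE mice (0.0955%) and 3 lower (0.00666%). That fit called 3 probesets in HPC, all higher (0.00675%), and 0 in BNST and CeA. At an unadjusted p under 0.05 it found 7.11% of probesets in NAC, 11% in HPC, 10.2% in BNST and 10.8% in CeA. At an adjusted p of 0.05 the 4-group fit found 9 in NAC (0.02%), 1 in HPC (0.00225%) and 0 in the other regions.

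**Figure D1:**
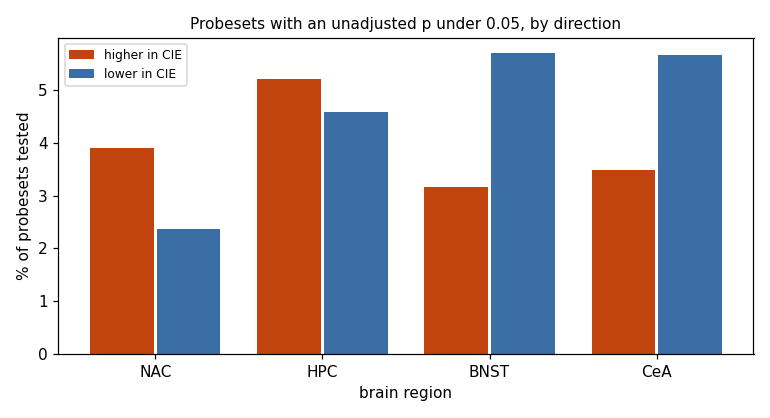
Share of the probesets tested in each region (vertical axis, percent) that had an unadjusted p under 0.05 in the limma fit, split into probesets higher (orange) and lower (blue) in CIE NonDrinking than in Air NonDrinking mice. Higher values prevailed in NAC (3.91% against 2.36%) and lower values in BNST (3.17% against 5.71%) and CeA.

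The largest difference called in the mean over the 4 regions was in a long noncoding RNA. 9630013A20Rik, an RNA of newly forming oligodendrocytes, the cells that lay down myelin, was lower in CIE mice in each region on all 3 of its probesets. On the brightest of them the 12 air arrays of NAC ran from 6.64 to 7.85 with a median of 7.36, and the 12 CIE arrays from 5.64 to 7.02 with a median of 6.21. All 12 CIE arrays were below the mean of the air arrays and 9 were below the lowest air array. The NAC difference was -1.05 ± 0.18 (SE) on the log2 scale, with an adjusted p of 0.0218 that missed the threshold in the 4-group fit and one of 0.00110 that passed it with the 2 NonDrinking groups alone.

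In HPC the 8 air arrays of 9630013A20Rik ran from 5.76 to 6.43 with a median of 6.28, and the 11 CIE arrays from 4.77 to 6.63 with a median of 5.41. A single CIE array, that of mouse 41, lay above the whole air range, and the other 10 lay below it, for a difference of -0.84 ± 0.16. In BNST the air arrays ran from 5.51 to 7.20 (median 6.60) and the CIE arrays from 4.98 to 6.51 (median 5.49), with 6 of 11 CIE arrays below the air range and a difference of -0.80 ± 0.23. In CeA the air arrays ran from 5.26 to 6.57 (median 5.91) and the CIE arrays from 4.81 to 5.65 (median 4.97), with 8 of 11 CIE arrays below the air range and a difference of -0.90 ± 0.23. The groups overlapped in each of the 4 regions. The other probesets gave smaller log2 differences, from -0.88 in NAC to -0.59 in BNST on one and from -0.50 in NAC to -0.20 in HPC on the other.

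**Figure D2:**
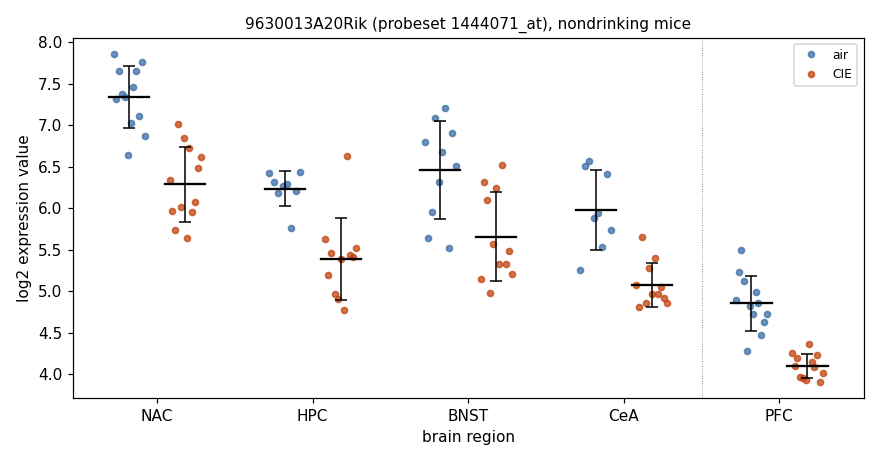
Log2 expression value of 9630013A20Rik (its brightest probeset, vertical axis) on each NonDrinking array, by region, for air (blue) and CIE (orange) mice, with the group mean (horizontal line) and SD (bar). The CIE mean lay 1.05 below the air mean in NAC, 0.84 in HPC, 0.80 in BNST and 0.90 in CeA; the PFC arrays at the right are the remaining region of the series.

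None of the measured genes in the lists of oligodendrocytes and their precursors was called. Of 18 measured genes of the myelin and oligodendrocyte list, 0 were called in any region or in the mean over the regions, 0 had an unadjusted p under 0.05 in NAC, HPC or CeA and 2 were lower at that level in BNST. The median log2 difference of this list was -0.03 in NAC, -0.04 in HPC, -0.08 in BNST and 0.01 in CeA, beside a median between -0.01 and 0.00 over all genes. Without the least correlated array it was 0.03 in NAC (without CIE mouse 39) and 0.12 in CeA (without air mouse 48), with 0 called. Myelin basic protein (Mbp), the main structural protein of the myelin sheath, differed by -0.03 ± 0.02 in the mean over the regions. The summed level of the 18 genes overlapped between groups, for instance 15.5 to 16.5 in CIE and 16.0 to 16.3 in air NAC arrays. Of 9 oligodendrocyte precursor genes 0 were called, with regional medians between -0.09 and -0.04. Enpp6, a marker of newly formed oligodendrocytes, differed by -0.26 in BNST (unadjusted p = 0.00265) and by 0.04 in CeA. The part of the number of newly forming oligodendrocytes in the lower 9630013A20Rik was not tested.

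To ask which differences the regions shared, each mouse was reduced to 1 value per probeset, its mean deviation over the regions it was measured in. On these mouse means 109 of 43893 probesets passed an adjusted p of 0.01 (0.248%), of which 91 were higher (0.207%) and 18 lower (0.041%) in CIE NonDrinking mice. The 91 included 69 with a single gene symbol, for 68 genes, and the 18 stood for 16 genes. All 18 falls had the same sign in each of the 4 regional fits, as had 84 of the 91 rises, and the other 7 rises had that sign in 3 regions. The regions contributed unequally. Of the 91 rises, 81 had an unadjusted p under 0.05 in NAC and 71 in HPC, but only 24 in BNST and 29 in CeA. Their median log2 differences were 0.27, 0.29, 0.15 and 0.17 in that order. Of the 18 falls 8 reached that level in NAC, 14 in HPC, 14 in BNST and 6 in CeA. The same arrays chose the probesets, so the agreement and these counts are a description and no test. The called differences were small, from 0.09 to 0.39 on the log2 scale for rises and from 0.10 to 0.91 for falls. No probeset passed the test of a vapor difference that varied by region (0 of 43893, 0%, with 6313 at an unadjusted p under 0.05, 14.4%), and none of the 109 did so even at an adjusted p of 0.05.

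The count depended on which regions and mice entered. Without NAC no probeset passed (0), and without HPC 9 did, while 116 passed without BNST and 327 without CeA. All 109 kept their sign under each of these. These means reuse most of the arrays that chose the 109, so the kept sign is no test. Only 11 probesets passed with the 16 mice measured in all regions, and 240 passed without the array of each region that correlated least with the rest, of which 100 were among the 109.

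9630013A20Rik led the falls, at -0.91 ± 0.09 (adjusted p = 1.24e-05), a level 1.88-fold lower. All 12 CIE mice had a mean below that of the air mice. Without NAC the difference was -0.85 with an adjusted p of 0.0137. The next largest falls were Hsf2, a heat shock transcription factor (-0.27 ± 0.05, adjusted p = 0.00624), and Usp9x, an X-linked deubiquitinase (-0.26 ± 0.05, adjusted p = 0.00748). Dctn4, a subunit of the dynactin complex of the dynein motor, fell by 0.24, Nampt, the rate-limiting enzyme of NAD salvage, by 0.23, and Kcnip4, a partner protein of A-type potassium channels, by 0.20. Tcaf1, a regulator of TRP channels, fell by 0.19, the ubiquitin ligase Pja2 by 0.17, Cdc27, a subunit of the anaphase-promoting complex, by 0.17, and the cochaperone Dnajb6 by 0.16.

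The probeset values of Cdc27 showed how small these shared falls were. In BNST the 10 air arrays ran from 7.19 to 7.78 with a median of 7.46, and the 11 CIE arrays from 6.72 to 7.42 with a median of 7.20. All 11 CIE arrays were below the air mean, and 5 were below the air range. In NAC the medians were 7.35 in air and 7.38 in CIE, with ranges that overlapped almost wholly.

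Among the rises, Prrc2c, an RNA-binding protein of stress granules, had the largest (0.39 ± 0.06, adjusted p = 0.000861). Zbtb7a, a zinc finger repressor, rose by 0.38 ± 0.05 (adjusted p = 0.000170), and Bptf, the largest subunit of the NURF chromatin remodeller, by 0.37 ± 0.07 (adjusted p = 0.00479). Tlk1, a kinase of histone chaperones, rose by 0.36, Chd4, the ATPase of the NuRD complex, by 0.32, and Mia3, a cargo receptor for collagen export, by 0.32. The ubiquitin ligase Nedd4 rose by 0.31, the semaphorin receptor Plxnc1 by 0.31, Nr2e1, an orphan nuclear receptor of neural stem cells, by 0.31 and the pseudokinase Peak1 by 0.30.

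The array values of Zbtb7a overlapped between groups in each region. In NAC the air arrays ran from 6.81 to 7.43 (median 7.10) and the CIE arrays from 7.41 to 7.91 (median 7.70), so that 10 of 12 CIE arrays lay above the air range. In CeA the air arrays ran from 6.05 to 6.62 (median 6.42) and the CIE arrays from 6.20 to 7.14 (median 6.94), with 9 of 11 above the air range. In BNST the medians were 7.24 and 7.47 and only 4 of 11 CIE arrays lay above the air range. Chd4 was 1 of 2 probesets with an unadjusted p under 0.05 and a higher value in all 4 regions, with differences of 0.25 in NAC, 0.47 in HPC, 0.24 in BNST and 0.38 in CeA. The other was Cntrl, a centriole protein, at 0.20 in NAC, HPC and BNST and 0.35 in CeA.

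Chromatin regulators were the only one of the 30 gene lists with more than 1 called probeset. The lists were chosen with earlier results of these data known, so this is a description and no test. Of 67 probesets for its 28 measured genes, 5 were called, all higher: 2 of Smarcc1 (0.09 and 0.29) and 1 of Smarca4 (0.18), which are BAF remodeller subunits, 1 of the histone acetyltransferase Crebbp (0.27) and 1 of Bptf. Over all probesets 0.207% were called higher. Of the 67, 14 were higher and 5 lower at an unadjusted p under 0.05, beside 7.01% and 6.04% of all probesets. The median of the list was 0.01 over those 67 probesets and 0.00 over all probesets. The brightest probeset of each gene gave 1 call in this list (Smarcc1) and 8 higher and 2 lower calls among 17924 genes.

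**Figure D3:**
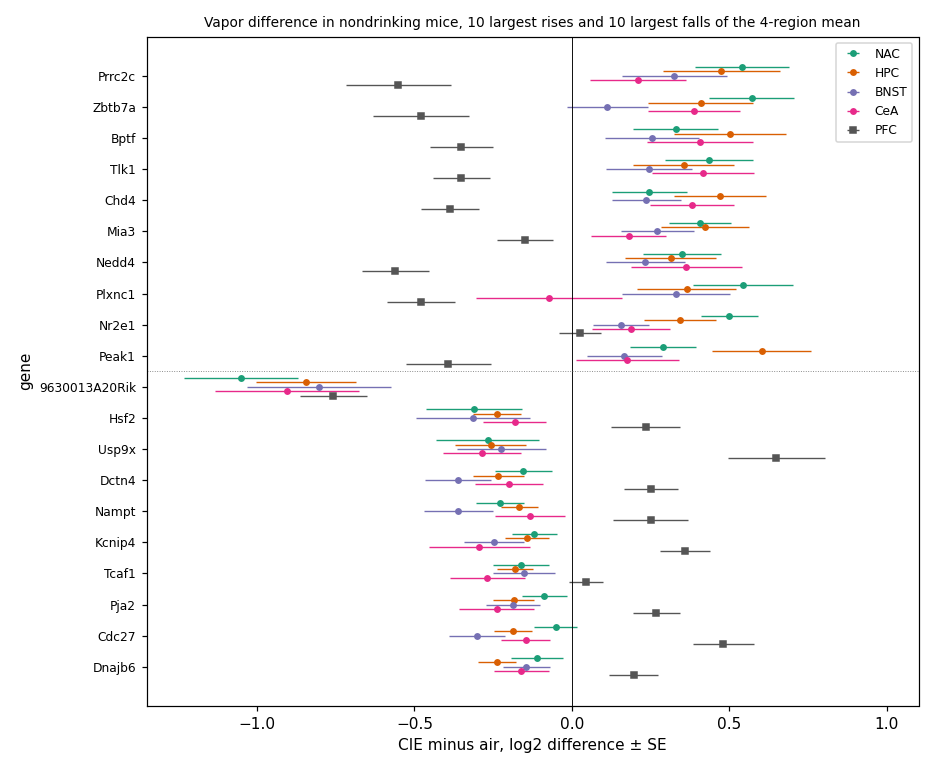
Log2 difference between CIE and Air NonDrinking mice (horizontal axis, point with SE) in each of the 4 regions and in PFC for the 10 largest rises and the 10 largest falls of the mean over the 4 regions. The circles of a gene mostly lie on one side of 0, with Plxnc1 in CeA (-0.07) the exception, and the PFC square lies on the opposite side for most genes but not for 9630013A20Rik (-0.76).

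Most called probesets were not the brightest of their gene. Among the 66 genes with a called rise and another probeset, 62 had a brighter one, and so had 14 of 15 genes with a called fall. The other probesets of the rising genes were higher in 104 of 199 cases, 30 of them at an unadjusted p under 0.05, with 9 lower at that level. Prrc2c, for example, was measured on a called probeset with a mean of 5.26 and on a brighter one at 10.90, and its 5 other probesets differed by between -0.06 and 0.13. Of the 44 other probesets of the falling genes 30 were lower, 13 of them at an unadjusted p under 0.05, with 5 higher at that level. The 4 others of Tcaf1 all lay above 0, between 0.01 and 0.15, and the 3 of Pja2 between -0.19 and 0.10. The called differences are therefore values of single probesets, and which part of a transcript each probeset reads was not analysed here.

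The promoters of the genes are shown for the largest fall, the 2 largest rises and the fall next in size, because they differ in CG content. Each is the 250 bases before the transcription start on the gene's strand, from RefSeq on build GRCm38.p6, with CG dinucleotides in capitals.
9630013A20Rik (chr14:84476425-84476674, minus strand): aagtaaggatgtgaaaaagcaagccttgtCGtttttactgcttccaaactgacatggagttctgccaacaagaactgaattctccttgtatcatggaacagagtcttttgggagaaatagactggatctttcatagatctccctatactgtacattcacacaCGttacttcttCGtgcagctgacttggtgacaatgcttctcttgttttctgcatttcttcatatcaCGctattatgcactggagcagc
Prrc2c (chr1:162740557-162740806, minus strand): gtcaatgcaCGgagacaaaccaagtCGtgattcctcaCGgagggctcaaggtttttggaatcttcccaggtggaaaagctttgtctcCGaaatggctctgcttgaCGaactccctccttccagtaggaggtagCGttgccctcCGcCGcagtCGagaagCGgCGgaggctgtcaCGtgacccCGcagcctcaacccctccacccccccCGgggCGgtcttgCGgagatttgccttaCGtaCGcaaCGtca
Zbtb7a (chr10:81136021-81136270, plus strand): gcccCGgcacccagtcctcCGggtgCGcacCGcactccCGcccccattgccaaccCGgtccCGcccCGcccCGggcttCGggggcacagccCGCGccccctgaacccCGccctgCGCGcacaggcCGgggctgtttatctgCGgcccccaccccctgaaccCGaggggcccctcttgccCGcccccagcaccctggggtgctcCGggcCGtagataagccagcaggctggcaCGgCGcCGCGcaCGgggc
Hsf2 (chr10:57486135-57486384, plus strand): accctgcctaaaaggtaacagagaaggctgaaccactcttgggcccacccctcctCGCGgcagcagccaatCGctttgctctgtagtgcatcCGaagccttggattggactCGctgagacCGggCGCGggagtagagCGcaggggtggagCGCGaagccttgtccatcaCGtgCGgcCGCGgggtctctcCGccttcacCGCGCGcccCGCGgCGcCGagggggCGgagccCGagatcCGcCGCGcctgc

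The window of 9630013A20Rik held 4 CG dinucleotides, against 19 in Prrc2c, 26 in Zbtb7a and 28 in Hsf2. The whole RefSeq windows, which run on into the first transcribed bases, were matched by symbol for 60 of the 68 genes with a called rise and 13 of the 16 with a called fall. The median was 29.5 CG dinucleotides for rises and 26 for falls, against 17 over the 14232 measured genes with a promoter and 21 over the 9887 whose probesets averaged 6 or more in every region. The letters CAGCTG, an E-box that reads the same on both strands, stood in 8 of the 60 promoters of rises (13.3%), in 6 of the 13 of falls including 9630013A20Rik, and in 16.3% of all RefSeq promoters.

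Smarcc1 (0.29, adjusted p = 0.00999) was the last one inside, and Lss, an enzyme of cholesterol synthesis, was the first outside (0.16, adjusted p = 0.0107).

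Direction was also counted over the whole array. Of 43893 probesets 3336 were higher in CIE in all 4 regions (7.60%) and 3310 lower in all 4 (7.54%), 6646 in all (15.1%), and 15121 were split evenly (34.4%). At an unadjusted p under 0.05 in 2 or more regions with no region in the opposite direction, 1230 probesets remained, 2.80% of all, and 667 (1.52%) reached that level in both directions. In 4 regions at that level 2 probesets were higher and 5 lower, the 5 being the 3 of 9630013A20Rik, Ube2d3, a ubiquitin-conjugating enzyme (-0.11), and 2810001G20Rik (-0.13). The regional log2 differences correlated most between NAC and HPC (Pearson r = 0.362 across probesets), less between HPC and BNST (0.158) and NAC and BNST (0.144), and CeA stood near 0 with NAC and HPC (0.0200 each) and below 0 with BNST (-0.123). These points share mice in all pairs, between 10 and 11 CIE mice and 7 and 10 air mice, and probesets are not independent.

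The genes nearest to a call within a region differed between regions. In NAC, Cnnm1, a magnesium transport protein, had 12 air arrays between 8.89 and 9.25 (median 9.06) and 12 CIE arrays between 9.24 and 9.91 (median 9.47). Of the CIE arrays 11 lay above the air range, for a difference of 0.47 ± 0.09 (adjusted p = 0.0218), while the difference was 0.10 in HPC, 0.16 in BNST and -0.17 in CeA. Nr2e1 had 11 of 12 CIE arrays above the air range in NAC (0.50 ± 0.09, adjusted p = 0.0218), and Gnai1, an inhibitory G protein subunit, differed by 0.33 ± 0.06. With the 2 NonDrinking groups alone these genes passed, as did Smg1, the kinase of nonsense-mediated decay (0.52), Papola, the poly(A) polymerase (0.50), Zbtb7a (0.57) and Prrc2c (0.54). The next falls in NAC were in Mdh1, the cytosolic malate dehydrogenase (-0.19), and Zscan20 (-0.19).

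In HPC, among probesets with a mean of at least 6 in the region, which leaves out 9630013A20Rik there (unadjusted p = 3.71e-06), the smallest p-values were those of the splicing factor genes Prpf19 and Sf3b5 (0.14 each) and Mcts2 (0.18) for higher values, and of Gid4 (-0.21), Abcd2, a peroxisomal fatty acid transporter (-0.23), and Tial1, a stress granule protein (-0.23), for lower values, each with an adjusted p of 0.263. With the 2 NonDrinking groups alone Fam13c (0.60) and Add1, the cytoskeletal protein adducin (0.35), passed. In BNST, under the same minimum level, the smallest p-values were those of Srrm1 on 1 of its probesets (0.15), Nipal3 (0.21) and Tlcd5 (0.14), and Col19a1 (-0.30), the axon initial segment anchor Ank3 (-0.27) and Hlcs (-0.23). In CeA, where 9630013A20Rik was again under that level (unadjusted p = 0.000292), they were those of Ilvbl (0.33), Zfp524 (0.16) and the cohesin loader Mau2 (0.32), and Sdf4 (-0.51), Auts2 (-0.39) and 2810001G20Rik (-0.23).

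The genes with the smallest p for a difference between regions pointed mostly to CeA against the rest. Wasl, an activator of actin branching, was 0.36 higher in NAC and 0.54 in HPC but -0.28 in CeA. Rbks (0.47), the cell death gene Bmf (0.40) and the BMP receptor Bmpr1a (0.23) were higher in CeA, with differences between -0.18 and 0.01 elsewhere. Rap2b was at -0.24 in CeA and 0.14 in BNST on this probeset. None of these passed at an adjusted p of 0.01.

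By their medians the gene lists set CeA apart as well, with markers of ventricular tissue among them. All 13 measured genes of choroid plexus and ependyma, the epithelium of the ventricles, were higher in CIE CeA arrays, with a median log2 difference of 0.78, but 0 had an unadjusted p under 0.05. Aqp1, the water channel of that epithelium, differed by 1.24 ± 0.92 in CeA and by 0.11 in each of the other regions. The summed choroid list ran from 14.5 to 16.3 in CIE and from 14.6 to 16.2 in air CeA arrays, far above the 9.78 to 11.98 of the other regions. The CIE minus air difference of that sum was 0.36 in CeA, 0.33 in HPC, 0.15 in BNST and -0.12 in NAC, so a higher sum was not particular to CeA. In HPC 11 of the 13 genes were above 0, with a median of 0.04. Without the CeA array of air mouse 48 the CeA median was 0.45.

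In the same CeA arrays 10 of 14 measured genes of synaptic vesicle release were lower at an unadjusted p under 0.05, with a median of -0.25, beside 1118 of 17944 genes and a median of -0.01 over all genes. Syt1, the calcium sensor of release, differed by -0.16 and Rab3a, a vesicle GTPase, by -0.12. Of 17 glutamate receptor genes 7 were lower at that level (median -0.24), among them Grm5 (-0.29) and Grm7 (-0.31), and of 10 neuron genes 5 were (median -0.18). None of these was called at an adjusted p of 0.01. Without the array of mouse 48 the counts were 8, 6 and 5. The part of choroid plexus in the dissections in these values was not tested. In NAC all 14 genes of vesicle release were above 0 (median 0.06), with 0 at that level.

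In BNST all 12 measured genes of striatal projection neurons were higher in CIE mice (median 0.31), with 1 at an unadjusted p under 0.05, the neuropeptide gene Tac1 (0.45). The summed list ran from 13.5 to 15.0 in CIE and from 13.0 to 14.7 in air BNST arrays. The part of neighbouring striatum in these dissections was not tested. All 13 genes of endothelium and pericytes were lower in BNST (median -0.10, 3 at that level, and 8 without the array of CIE mouse 34) and none was above 0 in HPC (median -0.08), while all were above 0 in CeA (median 0.06). Astrocyte genes were lower at that level in 4 of 12 cases in HPC, beside 4.40% of all genes, and in 5 of 12 in BNST, beside 5.95%. Without the HPC array of CIE mouse 38 the HPC count was 2. In the mean over the regions 7 of the 12 astrocyte genes were lower and 1 higher at an unadjusted p under 0.05. Over all genes the shares were 6.06% and 5.43%. The connexin Gjb6 (-0.18 ± 0.04, adjusted p = 0.0443) and Gja1 (-0.07) had the smallest p of that list in the mean. Another probeset of Gja1 was at -0.12 in the mean (adjusted p = 0.0170).

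**Figure D4:**
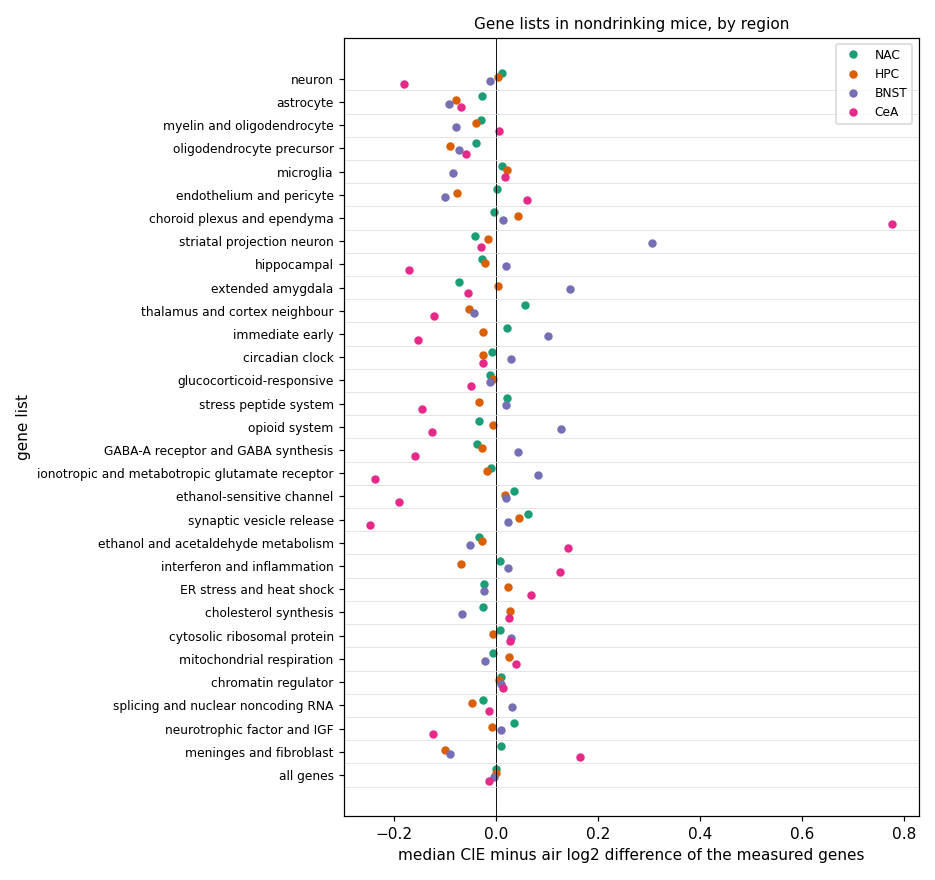
Median log2 difference between CIE and Air NonDrinking mice (horizontal axis) over the measured genes of each list, by region, with all genes in the last row. By this median CeA stands apart for choroid plexus and ependyma (0.78) and synaptic vesicle release (-0.25), and BNST for striatal projection neurons (0.31). The summed choroid list differed by 0.36 in CeA, 0.33 in HPC, 0.15 in BNST and -0.12 in NAC. For chromatin regulators the 4 regions lie close together.

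Lists tied to ethanol, stress and neuronal activity held 0 called genes in any region or in the mean. Of 13 genes of ethanol and acetaldehyde metabolism, Cyp2e1, which oxidizes ethanol in brain, was at -0.10 in the mean and -0.17 in CeA, while 10 of the 13 were above 0 in CeA, 3 of them at an unadjusted p under 0.05, with a list median of 0.14. Of 16 genes of stress peptide systems, Crhr2, a receptor of corticotropin-releasing factor family peptides, was at 0.19 in the mean and 0.66 in CeA, where it was the only one of the 16 above 0 and the list median was -0.14. The vasopressin gene Avp was at -0.22 in the mean. Among 14 genes of GABA-A receptors and GABA synthesis, Gabrb2 (-0.14, unadjusted p = 0.00152) and the scaffold Gphn (-0.09) had the smallest p in the mean, and in NAC none of the 14 had an unadjusted p under 0.05. Of 13 ethanol-sensitive channels the pacemaker channel Hcn2 was at -0.11 in the mean (adjusted p = 0.0507) and -0.24 in BNST (unadjusted p = 0.000595). Of 19 immediate early genes Jund was at 0.04 and Egr1 at 0.09 in the mean, with list medians of 0.10 in BNST and -0.15 in CeA. Of 15 glucocorticoid-responsive genes Hsd11b1, which regenerates corticosterone, was at -0.16 and Tsc22d3 at -0.11. Of 16 genes of interferon and inflammation Ifi27 was at 0.20 in the mean and 0.56 in CeA, where 13 of the 16 were above 0 with a median of 0.13. In cytosolic ribosomal proteins, mitochondrial respiration and the circadian clock the medians lay between -0.03 and 0.04 in each region. In BNST 6 of 19 respiration genes were lower at an unadjusted p under 0.05 and 0 higher, beside 5.95% of all genes lower. Without the BNST array of CIE mouse 34 that count was 3. In CeA 3 of 12 ribosomal protein genes were higher at that level and 0 lower, beside 3.68% of all genes higher. Without the array of air mouse 48 that count was 2.

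The drinking mice offered separate samples for the shared differences, since none of their mice or arrays had entered the choice, although all arrays of a region were normalized together. CIE Drinking was compared with Air Drinking over the same 4 regions, on 94 arrays. Over all probesets, 59.9% had the same sign of the vapor difference in Drinking as in NonDrinking mice. All 91 probesets with a called rise in NonDrinking mice were higher in CIE Drinking mice, 89 at an unadjusted p under 0.05 beside 8.63% of all probesets, and 34 passed an adjusted p of 0.01 beside 0.706%. The probesets were measured on the same mice and are not independent, so the 91 are not separate repeats. Of the 18 falls 16 were lower, 10 at an unadjusted p under 0.05 beside 10.6% of all, and 3 passed beside 0.0752%. Those 3 were the probesets of 9630013A20Rik, at -0.87, -0.70 and -0.46, while Usp9x was at 0.03 and Scoc at 0.06. The median log2 difference of the 91 was 0.36 in Drinking mice, and that of the 18 was -0.07, beside a median of -0.01 over all probesets. The test of a vapor difference that varied with drinking found 0 of 43893 on the mouse means (0%, 4235 at an unadjusted p under 0.05, 9.65%), and none of the 109 passed it. Within regions that test also called 0 probesets in each (0%), while 11.6% of probesets in NAC, 8.93% in HPC, 22.5% in BNST and 11.1% in CeA had an unadjusted p under 0.05. At an adjusted p of 0.05 it found 514 in BNST (1.16%), 1 in HPC and 0 in NAC and CeA, and with array weights 3168 passed 0.01 in BNST.

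In the prefrontal cortex (PFC) of the same NonDrinking mice most of the 109 probesets had the opposite sign. Of the 91 rises only 2 were higher in CIE PFC, and 21 were called lower there, with a median of -0.24. Over all probesets the PFC regional fit called 1.26%, both directions together. Of the 18 falls 3 were lower in PFC, namely the probesets of 9630013A20Rik, and 5 were called higher, among them Cdc27 (0.48) and Usp9x (0.65). Over all probesets, too, the vapor differences of PFC correlated below 0 with those of each region. Pearson r was -0.169 with NAC, -0.249 with HPC, -0.150 with BNST and -0.204 with CeA. The share of all probesets with the opposite sign in PFC was not counted. The test of PFC against the mean of the 4 regions called 1529 of 43893 probesets (3.48%). Its value holds the mean that chose the 109, so their calls in it are not counted here. Its smallest p-values were those of Gtf3c1 (-0.80 in PFC), Lins1 (-0.51), Fbxl18 (-0.39), Tbc1d15 (-0.59) and Scaf11 (-0.52), which lay between -0.01 and 0.30 in the 4 regions. Of these, Fbxl18 is among the 109, so its place here is not separate from their choice. The brightest probeset of 9630013A20Rik showed no detected difference from PFC (0.14 ± 0.19 for PFC minus the 4 regions, adjusted p = 0.737), and neither did the probeset at -0.24 in PFC (adjusted p = 0.484). The remaining probeset lay between 2.99 and 3.36 on all PFC arrays, below its values in the 4 regions, with a PFC difference of -0.05 (adjusted p = 0.562), and its difference from the 4 regions was called (0.64 ± 0.16, adjusted p = 0.00467). For the brightest probeset the PFC air arrays ran from 4.28 to 5.50 and the PFC CIE arrays from 3.91 to 4.36. The PFC regional fit called 569 probesets (1.26%), and 71 (0.158%) with the 2 NonDrinking groups alone. Whether the array batches of PFC had a part in the opposite direction was not tested.

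**Figure D5:**
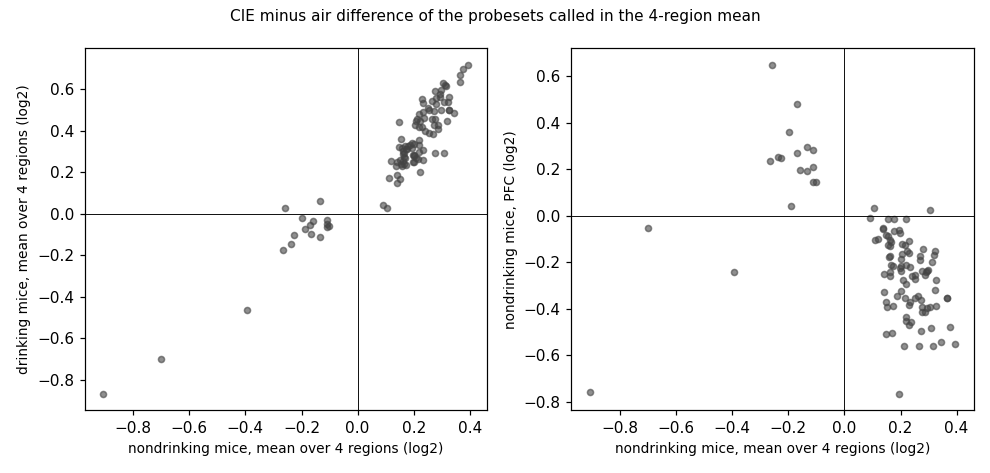
CIE minus air log2 difference of the 109 probesets called in the mean over 4 regions of NonDrinking mice (horizontal axis) against that in the drinking mice (left, mean over the same regions) and in the PFC of the NonDrinking mice (right). The 91 rises were all above 0 in the drinking mice and all but 2 below 0 in PFC; the probeset farthest left in both is 9630013A20Rik.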

How the data were processed

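RNA of dissected brain regions was measured on Affymetrix mouse genome arrays, 1 array per mouse and region. The authors made the deposited log2 values with RMA and quantile normalization for each region separately, removed arrays of low quality and adjusted for hybridization batch with ComBat. Hybridization batches are not given in the sources used here, so no value within a batch was made. The deposited table held 45037 probesets, of which 34945 carried a single gene symbol, 932 several and 9160 none.

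Each region was fitted in limma 3.58.1 (R 4.3.3) with its 4 treatment groups, and p-values were adjusted by Benjamini-Hochberg over all probesets of the region. A call is an adjusted p of 0.01 or less, as in the study. For the mean over regions, each array's deviation from the midpoint of its region's 2 group means was averaged by mouse and weighted by the number of regions. Region differences were fitted on single arrays with mouse as a block (consensus correlation -0.0113). Gene lists used the brightest probeset of a gene, and 431 of 471 list genes had one; the others were not analysed here. Named genes were the 10 largest called rises and falls of the mean, the smallest p-values of each region and of each list, the 2-group calls and the smallest p-values between regions and against PFC. Members and lists were chosen with earlier results of these data known. On simulated arrays the regional fits recovered 94% (NAC), 95% (HPC), 93% (BNST) and 83% (CeA) of changes of 0.6 on the log2 scale, and the fit of mouse means 92% of changes of 0.3. The simulated noise was independent between arrays and probesets, and each change was the same in all 4 regions. Variation shared by the arrays of a mouse, responses that differ by region and far arrays were not simulated. Precision rests on the number of arrays, 8 to 12 a group. Alternatives were a filter at a mean of 6, trended and robust variances, array weights, repeated quantile normalization, other weights and other sets of arrays.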

Additional observations from a re-analysis of the deposited data

Results flagged for a closer look

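In 12 of the 60 groups of 8 or 10 arrays checked for the named genes, 1 array lay far from the rest by Dixon's test, where chance gives about 1 in 20. Groups of that size were the air groups of HPC, BNST and CeA. NAC and the CIE groups, with 11 or 12 arrays each, were not checked, so far arrays among them are not known. The genes share arrays, so the 60 checks are not independent. Of the 12 far arrays, 6 were the CeA array of air mouse 48, the array least correlated with its region: Usp9x (gap over range 0.718, log2 value 5.96 beside a group median of 6.81), Dctn4 (0.725), Nampt (0.719), Pja2 (0.718), Dnajb6 (0.701) and Cdc27 (0.623). Each of the 6 was lower there than in the other air arrays. Single far arrays were also found in Peak1 in CeA (0.621, mouse 55), Tlk1 in HPC (0.553, mouse 45) and BNST (0.570, mouse 49), Chd4 in BNST (0.539, mouse 49) and Nr2e1 in HPC (0.554, mouse 49). For 9630013A20Rik in HPC air mouse 52 stood low (0.620, at 5.76 beside a median of 6.28).

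The vapor difference in PFC differed from the mean of the 4 regions most clearly for Gtf3c1 (-0.86 for PFC minus the 4 regions), Lins1 (-0.58), Fbxl18 (-0.54), Tbc1d15 (-0.80) and Scaf11 (-0.66), each by the test of the difference itself. Fbxl18 was also called in the mean over the 4 regions, which enters that test.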

How the results depend on the processing

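No probeset was called in a single region with the dim probesets left out, with trended and robust variances, after repeated quantile normalization or without the least correlated array, and array weights called 1 in CeA. An adjusted p of 0.05 called 9 in NAC and 1 in HPC, and the fit of the 2 NonDrinking groups 46 in NAC and 3 in HPC. The test of vapor by drinking called 514 in BNST and 1 in HPC at 0.05, and 3168 in BNST and 8 in CeA with array weights. The mean over 4 regions called 109 probesets, 438 at 0.05, 270 on single arrays with the mouse as a replicate block, 250 on single arrays with no replicate block, 11 with only the mice measured in all regions, 0 without NAC, 9 without HPC, 327 without CeA and 240 without the least correlated arrays. Of the 109, 96 were among the 270 and 95 among the 250. The same mice served several regions, so the block pairs arrays by mouse; within a region CIE and air mice shared no number and no pairing was possible. The test between regions called 0 with and without the block and 12 at 0.05. PFC against the 4 regions called 3271 at 0.05 and 1618 with no replicate block. Directions were the same in all 4 regions for 4016 probesets with the dim ones left out, 15.7% of those tested. The settings with regions, arrays or mice left out were partly chosen after seeing the data, and the cause of each change was not tested. What a region could show differed: on simulated arrays CeA recovered 34% of changes of 0.3 and HPC, with as many arrays, 64%, beside a median SE of 0.071 in CeA and 0.057 in HPC.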
